A study of Mus musculus with 5 samples.

Results

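miR-221 and miR-222, listed in the files as mmu-miR-221 and mmu-miR-222, are a pair of related microRNAs (miRNAs), read here in small RNA libraries from mouse testis cells. Both were taken by name from the 5 deposited tag files, which makes 2 of the 593 mature miRNAs detected. All cells came from testes of C57BL/6 mice, and the labels give no age and no treatment. The cells were sorted magnetically with an antibody to Thy1.2, which marks a population rich in spermatogonial stem cells. The Thy1+ group (2 libraries) is the freshly isolated, stem cell enriched fraction. The Thy1- group (2 libraries) is the fraction depleted of those cells, which the titles call somatic-enriched although its cell type label repeats the stem cell name. The culture (1 library) is a germ cell culture derived from the Thy1+ population and kept for about 10 passages. Each fraction is a mixture of cells, and the labels do not say how many animals went into a library or whether the replicates are separate animals. The p-values therefore refer to the spread among these libraries, which may be technical.

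miRNAs are short RNAs that guide Argonaute proteins to messenger RNAs, mostly through pairing of bases 2 to 8 of the miRNA, the seed, with sites in the 3′ untranslated region. miR-221 and miR-222 are made from neighbouring hairpins and are known for repressing Kit, the receptor tyrosine kinase that appears when spermatogonia begin to differentiate, and Cdkn1b, an inhibitor of the cell cycle. In mouse spermatogonia the pair has been described as helping to keep cells undifferentiated by holding Kit down. No messenger RNA or protein was measured here.

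The mature sequences (RefSeq, GRCm38.p6) are shown because they set both what the pair can recognise and what the files could count. Capitals mark the seed.
miR-221: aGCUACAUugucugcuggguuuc
miR-222: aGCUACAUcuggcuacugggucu
The first 8 bases are the same in both, and 10 of the first 21 positions differ. With at most 2 mismatches allowed, each tag was kept where it had the fewest. On those placements no tag fell on both names, and every tag of either miRNA fell on that name alone. Placements of these tags elsewhere with more mismatches were not checked. Of the 492 names in the files with a full-length tag, only these 2 carry this seed. Among 1679 RefSeq mature mouse miRNAs the seed is also that of miR-1928, which is not analysed here. The files list miR-221 with 23 bases, as RefSeq does, but miR-222 with 21, without the last 2 bases of the RefSeq form. No tag in any library was placed past the listed end of its miRNA, so forms of miR-222 longer than 21 bases were not counted. Among 370 names whose RefSeq sequence begins with the sequence listed in the files, 5 are longer in RefSeq, and miR-222 is the only one longer by 2 bases or more. Levels of miR-222 are thus those of its shorter forms, and the pair cannot be set against each other as total amounts.

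Both hairpins lie on the minus strand of chromosome X in GRCm38, separated by 504 bases. Capitals mark the RefSeq mature miRNA, which is on the 3′ arm in both. The hairpin of miR-221 spans chrX:19146294-19146388 and that of miR-222 chrX:19146893-19146971, and neither overlaps another gene in the GENCODE annotation.
miR-221 hairpin: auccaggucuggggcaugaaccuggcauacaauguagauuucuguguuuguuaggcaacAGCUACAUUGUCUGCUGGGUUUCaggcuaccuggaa
miR-222 hairpin: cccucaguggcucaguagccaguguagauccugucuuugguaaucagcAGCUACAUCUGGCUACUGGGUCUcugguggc

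The 3′ untranslated regions of the known targets were searched on the sense strand for ATGTAGC, the reverse complement of the seed. The one of Kit (2177 bases, transcript Kit-204) held 2 matches and that of Cdkn1b (3439 bases, Cdkn1b-202) held 1. Capitals mark the match, and each of the 3 is followed by an A, the base known to strengthen such sites.
Kit, chr5:75654977-75655006, plus strand: aatgatgggagatatATGTAGCaagactag
Kit, chr5:75656508-75656537, plus strand: tttgtaaatattgaaATGTAGCaataatgt
Cdkn1b, chr6:134924416-134924445, plus strand: ctctaaaagcattggATGTAGCattgcgca
Of 2736 genes with a 3′ untranslated region within 20% of the length of that of Kit, 15.2% held the same 7 letters, and of 1932 genes near the length of that of Cdkn1b, 22.3% did. A match is a stretch of letters and not a measured site.

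Read counts on miRNAs came to between 937009 and 947681 in the Thy1+ libraries, 2548235 and 4909752 in the Thy1- libraries and 5110008 in the culture. Only reads placed on a miRNA are listed, so these are not whole sequencing depths. Levels are given in CPM, the counts of a miRNA per 1000000 counts on all miRNAs of the same library. Intervals are 95% Clopper-Pearson intervals and cover counting error only. miRNAs known from certain cells were set beside the labels, and none was at 0 in any library. The summed level of 4 testis miRNAs from the X chromosome (miR-741, miR-871, miR-880, miR-881) was 75768 to 78719 CPM in Thy1+, 8605 to 13296 in Thy1- and 32431 in the culture. All 4 were called higher than in Thy1- by edgeR, both in Thy1+ (20.5% of all miRNAs tested) and in the culture (18.1%). The 6 of the germ line and embryonic stem cell set (miR-290-5p, miR-291a-3p, miR-292-3p, miR-293, miR-294, miR-295) summed to 6303 to 13370 CPM in Thy1+, 602 to 1029 in Thy1- and 737 in the culture. In CPM the culture thus lay within the Thy1- range for this set. On edgeR's TMM scale, which sets the bulk of miRNAs near 0, the median log2 fold change of the set against Thy1- was 0.73. Its members ran from -0.37 (miR-290-5p) to 1.96 (miR-294). By edgeR 5 of the 6 were called higher in Thy1+ than in Thy1- (20.5% of all miRNAs tested), and 3 lower in the culture than in Thy1+ (13.4%). Between the culture and Thy1-, 0 of the 6 passed, beside 18.1% higher and 16.8% lower of all.

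Both miRNAs were at their highest level in the culture, lower in the fresh Thy1+ fraction and lowest in the Thy1- fraction. miR-221 stood at 1803 CPM in the culture, 351 ± 123 CPM (SD, n = 2) in Thy1+ and 140 ± 5.92 CPM (SD, n = 2) in Thy1-. miR-222 stood at 435 CPM, 65.9 ± 20.04 CPM and 18.3 ± 5.85 CPM in the same order. The rise in the culture passed the test against both fresh fractions, where 8.94% (against Thy1+) and 18.1% (against Thy1-) of all miRNAs tested were called higher. The difference between the fresh fractions did not pass, in a comparison in which 20.5% of all miRNAs tested were called higher.

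miR-221 had 264 CPM (interval 232 to 299) in the first Thy1+ library and 438 (397 to 482) in the second. In the Thy1- libraries it had 144 CPM (130 to 160) and 136 (126 to 146), and in the culture 1803 (1766 to 1840). The values rest on 247 and 415 counts in Thy1+, 367 and 666 in Thy1- and 9212 in the culture. The Thy1+ libraries differed from each other by more than counting error while the Thy1- libraries did not. By level, miR-221 ranked 55th of 510 names detected in the culture, 172nd of 534 and 153rd of 535 in Thy1+, and 194th of 530 and 183rd of 543 in Thy1-.

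miR-222 had 80.0 CPM (63.0 to 100.3) and 51.7 CPM (38.3 to 68.4) in the Thy1+ libraries. It had 14.1 CPM (9.89 to 19.6) and 22.4 CPM (18.4 to 27.0) in the Thy1- libraries and 435 CPM (417 to 454) in the culture. Its counts were 75 and 49 in Thy1+, 36 and 110 in Thy1- and 2224 in the culture. For both miRNAs the library values of the groups did not overlap. How many of all miRNAs share this was not counted, and the difference between the fresh fractions did not pass the test. The Thy1+ library with more miR-222 was the one with less miR-221. For miR-222 the intervals of replicate libraries overlapped, in Thy1+ and in Thy1-.

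**Figure D1:**
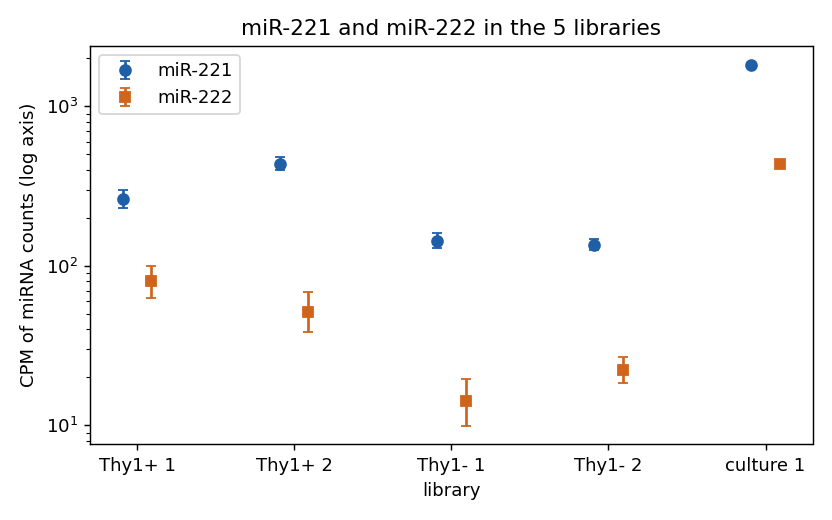
Level of miR-221 (circles) and miR-222 (squares) in each of the 5 libraries, in CPM on a log axis, with 95% Clopper-Pearson intervals as bars. The culture stands highest for both, at 1803 and 435 CPM, and the Thy1- libraries lowest.

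The culture was compared with the fresh Thy1+ fraction, from which it derives, to ask how the pair differs after about 10 passages. Both members rose. Log2 fold changes are on edgeR's TMM scale, which sets the bulk of miRNAs near 0 (median of all 470 tested, -0.09). miR-221 was higher by 4.04 (SE 0.61, 95% interval 2.67 to 5.42, edgeR adjusted p = 0.0105) and miR-222 by 4.35 (SE 0.73, 2.69 to 6.00, edgeR adjusted p = 0.0105). In the same comparison 8.94% of all miRNAs tested were called higher and 13.4% lower. In order of log2 fold change miR-222 was 3rd and miR-221 6th of the 470. As plain ratios of mean CPM the culture held 5.14 times the miR-221 and 6.61 times the miR-222 of Thy1+. Scaling to total counts in place of TMM moved the median of all miRNAs to -1.73. The pair then stood at 2.36 and 2.72 and still passed (edgeR adjusted p = 0.0224 for miR-221 and 0.0159 for miR-222).

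With 1 culture library, its spread is assumed to be that of the fresh groups. The call rests on both Thy1+ libraries. Without the first, the values were 3.80 for miR-221 (edgeR adjusted p = 0.0684) and 4.83 for miR-222 (0.0565), and without the second 3.97 (0.123) and 3.64 (0.138). In both cases edgeR called 0 of all miRNAs tested, with 145 and 120 at an unadjusted p under 0.05.

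Against the Thy1- fraction both members also rose. miR-221 was higher in the culture by 4.73 in log2 units (SE 0.62, edgeR adjusted p = 2.20e-03) and miR-222 by 5.57 (SE 0.76, edgeR adjusted p = 2.20e-03). Of all 470 miRNAs tested 18.1% were called higher and 16.8% lower, and the median was -0.15. The mean CPM ratio was 12.9 for miR-221 and 23.8 for miR-222. Both calls held when any 1 fresh library was left out, with values from 4.44 to 4.84 for miR-221 and 4.98 to 6.14 for miR-222. The comparisons with the 2 fresh fractions share the culture library and are not independent.

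Between the fresh fractions the question was whether the stem cell enriched cells hold more of the pair. The mean CPM of Thy1+ was 2.51 times that of Thy1- for miR-221 and 3.61 times for miR-222. On the TMM scale miR-221 was at 0.74 (SE 0.52, 95% interval -0.46 to 1.94, edgeR adjusted p = 0.317) and miR-222 at 1.28 (SE 0.58, -0.08 to 2.63, edgeR adjusted p = 0.133). Neither passed, in a comparison in which 20.5% of 425 miRNAs were called higher and 7.76% lower. The intervals include no difference and also a difference of several fold for either miRNA. Under total scaling, which moved the median of all miRNAs from -0.07 to 0.51, miR-222 passed at 1.84 (edgeR adjusted p = 0.0437) and miR-221 stood at 1.33 without passing. In these mixed fractions, fewer cells of a type and less RNA per cell cannot be told apart.

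**Figure D2:**
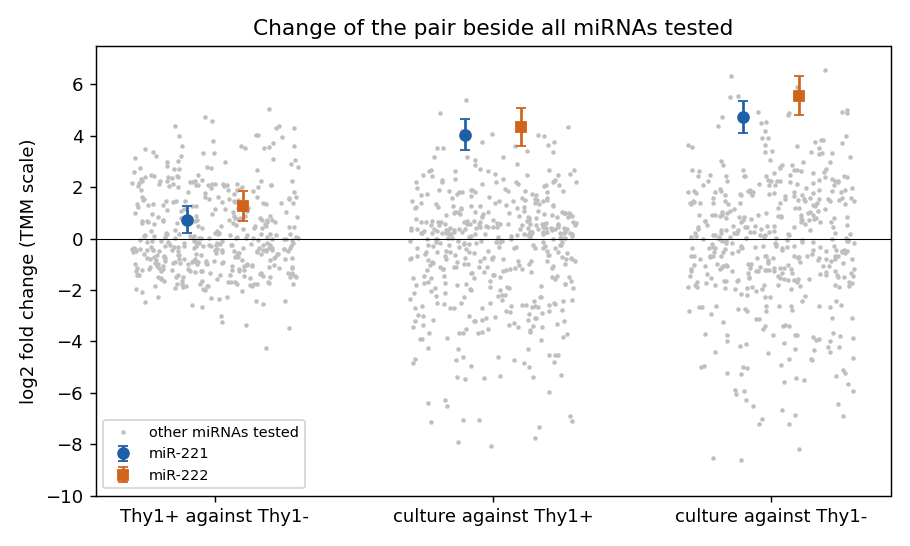
Log2 fold change of every miRNA tested (grey) in the 3 comparisons, with miR-221 (circles) and miR-222 (squares) and their standard errors as bars. The pair lies near the top in both culture comparisons, at 4.04 and 4.35 against Thy1+, and at 0.74 and 1.28 between the fresh fractions.

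miRNAs of other cell types differed between the same libraries. The mesenchymal set (6 products of miR-143, miR-145, miR-199 and miR-214) summed to 64977 CPM in the culture, 27211 to 38089 in Thy1+ and 30853 to 46252 in Thy1-. Of its 6 members 5 rose in the culture against Thy1+, where 8.94% of all miRNAs tested were called higher, and 3 against Thy1-, where 18.1% were. In this set miR-199a-3p and miR-199b carry equal counts from shared tags, so their calls are not separate. miR-143 alone held 37950 CPM in the culture. miR-145 passed in neither comparison, with 234 CPM in the culture, 313 and 310 in Thy1+, and 830 and 323 in Thy1-. Against Thy1+ it stood at 1.24 on the TMM scale (edgeR adjusted p = 0.205). The 2 products of miR-126, known from endothelial cells, in which miR-221 and miR-222 are also known, summed to 562 CPM in the culture, 1918 to 2605 in Thy1+ and 964 to 1678 in Thy1-. On the TMM scale used for the pair neither passed in any comparison by edgeR or DESeq2, with 0 at an unadjusted p under 0.05. Against Thy1+, miR-126-3p stood at -0.37 and miR-126-5p at -0.13 (edgeR adjusted p = 0.730 and 0.915). Those of white blood cells (miR-142, miR-150, miR-155, miR-223) summed to 937 CPM in the culture, 14904 to 26541 in Thy1+ and 1346 to 2017 in Thy1-, nearly all of it miR-142-3p. All 5 of its members were called higher in Thy1+ than in Thy1- (20.5% of all miRNAs tested), and 3 were called lower in the culture than in Thy1+ (13.4%). Against Thy1- the set had a median of 0.08 on the TMM scale, and 1 of the 5 rose in the culture (18.1% of all). This was miR-155, at 92.8 CPM in the culture, 132 and 151 in Thy1+, and 9.81 and 6.72 in Thy1- (log2 4.55, edgeR adjusted p = 2.20e-03). The 2 arms of miR-202, known from Sertoli cells, summed to 173 CPM in the culture, 1138 to 2205 in Thy1+ and 3712 to 18584 in Thy1-. Both were called lower in Thy1+ than in Thy1- by edgeR (7.76% of all miRNAs tested). On the TMM scale the culture stood against Thy1+ at -1.31 (SE 0.78) for miR-202-3p and -1.64 (SE 0.92) for miR-202-5p, without passing. Against Thy1- it stood at -3.78 and -5.03. The part of mesenchymal or endothelial cells in the culture rise and of white blood cells in the Thy1+ levels was not tested.

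Other miRNAs have been reported to target KIT, mostly in human cancer cells, and 6 were listed to see whether they moved as the pair did. Between the fresh fractions 0 of the 5 that could be tested passed by edgeR, with 1 (miR-193, lower in Thy1+) at an unadjusted p under 0.05, and DESeq2 called 1, the same miRNA (median log2 fold change -0.46). Of all miRNAs tested there, edgeR called 20.5% higher and 7.76% lower. Against Thy1+, 1 of 6 rose in the culture and 1 fell by edgeR (median 0.56), beside 8.94% and 13.4% of all, and DESeq2 called 3, with miR-193 as the third. Both tools called the same 2, miR-218 and miR-494, against Thy1- (median 0.10), beside 18.1% higher and 16.8% lower of all by edgeR. miR-218 rose, from 48.0 and 42.2 CPM in Thy1+ to 52.8 CPM, by 1.87 on the TMM scale (SE 0.58, edgeR adjusted p = 0.0467). Its CPM values lie close together, and the rise is one relative to the bulk of miRNAs. miR-494 fell, from 56.6 and 57.0 CPM in Thy1+ to 1.17 CPM, which is 6 counts. On the TMM scale it fell by 3.92 (SE 0.81, edgeR adjusted p = 0.0151). miR-34a stood at 123 ± 13.7 CPM in Thy1+, 170 ± 139.8 in Thy1- and 82.0 in the culture, and passed in none of the comparisons. miR-193b (log2 -1.72), miR-193 (2.22) and miR-137 (0.06), the last with 5, 5 and 9 counts in the Thy1+ and culture libraries, did not pass against Thy1+ by edgeR.

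The 5′ ends of the counted tags, which set the seed, were nearly uniform. No tag in any library was placed before base 1 of its miRNA, so forms that start earlier were not counted. Of the miR-221 counts 99.6% and 98.8% began at base 1 in Thy1+, 99.5% and 98.8% in Thy1- and 99.3% in the culture. For miR-222 the shares were 98.7% and 100% in Thy1+, 100% and 99.1% in Thy1- and 98.8% in the culture. Among tags that start at base 1 or later, at least 98.7% of the counts of either miRNA in every library thus had the annotated start. The share of all forms that keep this seed position cannot be read from these tags.

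The 3′ ends varied. The leading tags are shown, in the letters of the files, since their lengths decide what could be counted. A capital marks a last base that differs from the mature sequence.
miR-221, 23 bases: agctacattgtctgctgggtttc
miR-221, 22 bases: agctacattgtctgctgggttt
miR-221, C23T: agctacattgtctgctgggtttT
miR-222, 21 bases: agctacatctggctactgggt
miR-222, 20 bases: agctacatctggctactggg
miR-222, T21A: agctacatctggctactgggA
Positions are counted from 1 at the 5′ end of the mature miRNA, with its base first and that of the tag last. The 23-base tag was 36.8% of the miR-221 counts in the culture, 21.9% and 27.5% in Thy1+, and 16.6% and 17.0% in Thy1-. The 22-base tag was 27.4% in the culture, 22.7% and 36.1% in Thy1+, and 37.1% and 33.0% in Thy1-. The culture was the library with the largest share of the exact 23-base tag. In each of the 4 fresh libraries the 22-base tag had more counts than the 23-base tag, by only 56 against 54 in the first Thy1+ library.

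Counting tags with mismatches too, 49.0% of miR-221 counts (48.0% to 50.1%) reached base 23 in the culture. The share was 29.6% (23.9% to 35.7%) and 41.4% (36.7% to 46.4%) in Thy1+, and 30.2% (25.6% to 35.2%) and 26.7% (23.4% to 30.3%) in Thy1-. The culture interval lay above that of every fresh library. The intervals of the Thy1+ libraries did not overlap each other, and that of the first overlapped both Thy1- libraries. Its tags were also the shortest, with 45.3% at 21 bases or fewer against 19.3% in the second Thy1+ library, 28.3% and 37.7% in Thy1- and 21.2% in the culture.

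miR-222 ended most often at base 20, 1 base short of the listed end, in every library but the second Thy1+ one. The share was 49.8% (47.7% to 51.9%) in the culture, 61.3% and 42.9% in Thy1+, and 55.6% and 42.7% in Thy1-. Base 21 was reached by 40.8% in the culture, 22.7% and 49.0% in Thy1+, and 27.8% and 35.5% in Thy1-. The fresh shares rest on 36 to 110 counts. For base 20 the intervals of the fresh libraries overlapped one another. For base 21 those of the Thy1+ libraries did not (13.8% to 33.8% and 34.4% to 63.7%), and both overlapped those of the Thy1- libraries.

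**Figure D3:**
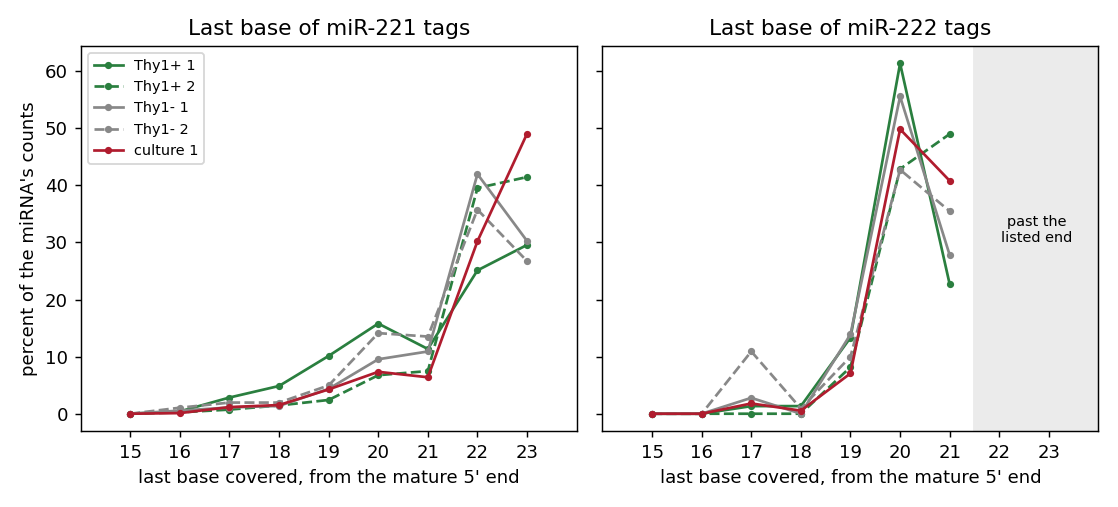
Share of the counts of miR-221 (left) and miR-222 (right) by the last base of the mature miRNA that the tag covered, 1 line per library. miR-221 tags end mostly at bases 22 and 23, with 49.0% at base 23 in the culture, and miR-222 tags at bases 20 and 21. The shaded positions lie past the listed end of miR-222.

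In miR-221 most single mismatches sat at the last base, where bases that the hairpin does not encode are known to be added to miRNAs. Of the miR-221 counts with exactly 1 mismatch, 75.6% (73.2% to 77.9%) had it at the last base in the culture and 71.7% to 77.3% in the fresh libraries, against 4.48% in the culture if mismatches fell evenly along the tags. For miR-222 in the culture the share was 87.6% (84.0% to 90.6%). In the fresh libraries miR-222 had only 12, 8, 1 and 9 such counts, of which 9, 4, 0 and 6 had the mismatch at the last base. A mismatch can only be a base other than the listed one. The listed base 21 of miR-222 is T, so a T added after base 20 would read as a match, and the last-base mismatches of the members cannot be compared. Whether these mismatches are added bases was not tested. In miR-221 the commonest last-base mismatch was C23T, at 5.42% (4.96% to 5.90%) of its counts in the culture, 2.83% and 5.06% in Thy1+, and 7.63% and 5.41% in Thy1-. In miR-222 the commonest was T21A, at 13.8% (12.4% to 15.4%) in the culture, 12.0% (5.64% to 21.6%) and 6.12% (1.28% to 16.9%) in Thy1+, and 0% (up to 9.74%) and 5.45% (2.03% to 11.5%) in Thy1-. The fresh values of T21A rest on 9, 3, 0 and 6 counts, and their intervals overlap with each other. The culture interval overlapped those of both Thy1+ libraries and lay above those of both Thy1- libraries.

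miR-222 made up 19.4% (18.7% to 20.2%) of the pair's counts in the culture, 23.3% (18.8% to 28.3%) and 10.6% (7.92% to 13.7%) in Thy1+, and 8.93% (6.34% to 12.2%) and 14.2% (11.8% to 16.8%) in Thy1-. The means of the fresh groups, 16.9% ± 9.003 and 11.6% ± 3.71 (SD, n = 2), differed by less than the spread within Thy1+ (two-sided exact permutation p = 0.667, with 0.333 the smallest that 2 against 2 libraries allow). Since miR-222 could be counted only up to 21 bases, the share was also taken over tags of at most 21 bases for both, an alternative added after the tags were seen. It was then 53.2% (51.7% to 54.8%) in the culture, 40.1% (33.0% to 47.5%) and 38.0% (29.6% to 46.9%) in Thy1+, and 25.7% (18.7% to 33.8%) and 30.5% (25.8% to 35.5%) in Thy1-. On this measure the culture interval lay above those of all 4 fresh libraries, the replicates of each group overlapped, and the Thy1+ and Thy1- means, 39.0% ± 1.501 and 28.1% ± 3.36 (SD, n = 2), gave the smallest p possible (two-sided exact permutation p = 0.333). The share of miR-221 tags this short also differs between libraries, as given above, and its part in the measure was not tested.

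**Figure D4:**
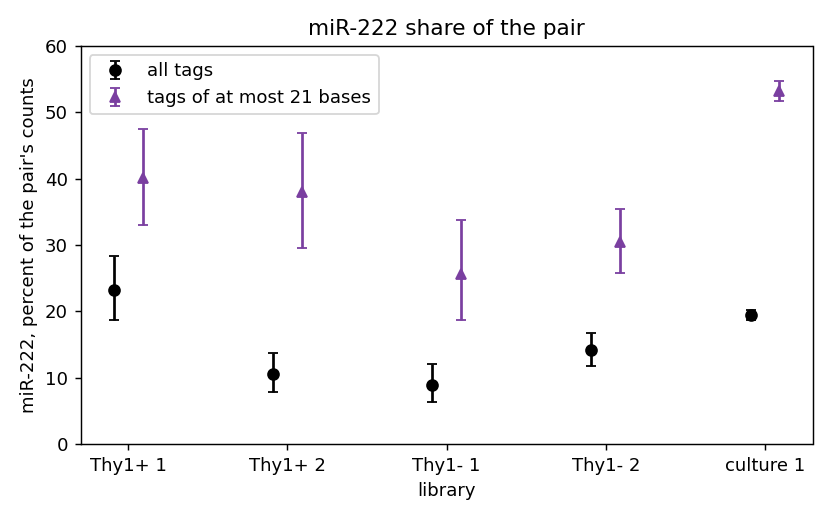
miR-222 as a percent of the counts of miR-221 and miR-222 together in each library, over all tags (circles) and over tags of at most 21 bases (triangles), with 95% Clopper-Pearson intervals. Over all tags the Thy1+ libraries lie apart, at 23.3% and 10.6%, and over short tags together, at 40.1% and 38.0%, below 53.2% in the culture.

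The miRNAs with the most similar profile were found by the root mean square difference of log2(CPM + 1), centred per miRNA, over the 5 libraries. The 386 other names with a mean of at least 10 CPM were compared. These libraries and the culture value are shared by all, so likeness is a description. Nearest to miR-221 was miR-21, known from many dividing cells and tumours, with a difference of 0.22 where the median over all names was 1.98. Next came miR-31 (0.37), miR-23a (0.47), miR-217 (0.54) and miR-222 (0.59). miR-21 had 27553 and 32738 CPM in Thy1+, 11709 and 11526 in Thy1- and 118931 in the culture, the same order of groups at a far higher level.

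Nearest to miR-222 was miR-217 with a difference of 0.51, followed by miR-21 (0.55), miR-216a (0.57), miR-146b (0.57) and miR-221 (0.59), where the median over all names was 2.26. miR-217 rose from 8.54 and 8.44 CPM in Thy1+, and 3.53 and 2.44 in Thy1-, to 115 CPM in the culture. Its fresh values rest on 8 and 8 counts in Thy1+ and 9 and 12 in Thy1-. Those of miR-216a rest on 19 and 7 counts in Thy1+ and 16 and 16 in Thy1-. Each member of the pair was thus the fifth nearest to the other. For miR-222 the differences lie close together, from 0.51 to 0.59, and the effect of counting error on the order was not tested. Over all tags, the second Thy1+ library had the higher miR-221 and the lower miR-222, whose intervals overlapped between the Thy1+ libraries. Over tags of at most 21 bases, the limit for miR-222, the first Thy1+ library had more counts of both. It held 112 of miR-221 and 75 of miR-222, and the second held 80 and 49.

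**Figure D5:**
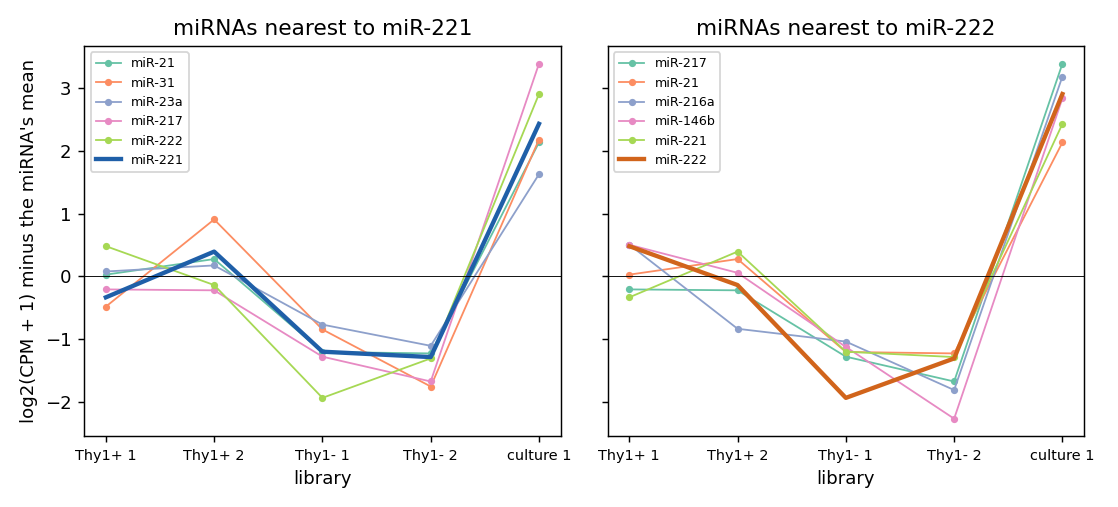
log2(CPM + 1) minus each miRNA's mean over the 5 libraries, for miR-221 (left) and miR-222 (right) as thick lines and their 5 nearest miRNAs as thin lines. All lines are lowest in a Thy1- library and highest in the culture, and that of miR-21 lies closest to miR-221, with a difference of 0.22.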

How the data were processed

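The deposited files list read counts per distinct sequence tag, not normalized, and give the placements of each tag on mature miRNAs with 0 to 2 mismatches. Mouse miRBase 12.0 and tags of 15 to 35 bases are named per the file names; the tags run from 15 to 25 bases. DESeq appears, with no version, in the submitters' processing notes. For aligner, adapter removal and build: not given in the sources used here.

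Each tag went to the miRNA with the fewest mismatches, ties (at most 8 names) were split equally and sums rounded. An N in a tag counted as no mismatch. All names were fitted with edgeR 4.0.16 under R 4.3.3 (quasi-likelihood, TMM, filterByExpr, two-sided, Benjamini-Hochberg over all names tested, threshold 0.05), the fresh fractions on 4 libraries and the culture comparisons on all 5. The fits were tested on simulated counts, with the same spread for all miRNAs and as many rises as falls set. True log2 changes of 4 were recovered at 100% in each comparison. Those of 2 were recovered at 60% for Thy1+ against Thy1-, 48% for culture against Thy1+ and 62% for culture against Thy1-. The simulation held no shift of the bulk of miRNAs such as total scaling showed in the culture. Alternatives were RLE and total scaling, no filter, DESeq2 1.42.0, tags without mismatches, tags on 1 name, each fresh library left out, replicate number as a block and all 5 libraries. Named miRNAs were the pair, its 5 nearest profiles and the listed sets. The pair and the lists were chosen with earlier results of these data known.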

Additional observations from a re-analysis of the deposited data

How the results depend on the processing

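The direction of miR-221 and miR-222 was the same in every comparison under every alternative run, with no reversal. miR-222 passed between the fresh fractions under total scaling (log2 1.84, edgeR adjusted p = 0.0437). Against Thy1+ the culture values ranged over the libraries left out from 3.75 to 4.05 for miR-221 and from 3.64 to 4.83 for miR-222, and missed the threshold without either Thy1+ library. The number of miRNAs called ranged, with 1 library left out, from 0 to 138 for Thy1+ against Thy1-, from 0 to 128 for culture against Thy1+ and from 55 to 135 for culture against Thy1-. With all libraries and total scaling, 173 were called for culture against Thy1+ (9 higher, 164 lower). With replicate number as a block (replicate block), 32 were called between the fresh fractions in place of 120, and the pair did not pass (0.72 and 1.28). Over 425 names the difference of replicate 1 from replicate 2 in Thy1+ had a Pearson r of -0.06 with that in Thy1-. No paired analysis was possible for the culture because it shares only 1 replicate number with each fresh group. The miR-222 share of the pair was 39.0% in Thy1+, 28.1% in Thy1- and 53.2% in the culture over tags of at most 21 bases, and 18.7% in the culture over tags without mismatches, where fewer counts enter. Without mismatched tags, fewer miR-221 counts reached base 23, at 20.6% in Thy1- and 44.6% in the culture, and fewer miR-222 counts reached base 21, at 30.4% in the culture. Depth limits the shares of miR-222 tags in the fresh libraries, which rest on 36 to 110 counts.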
